A study of Caenorhabditis elegans with 12 samples.

Results

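The dod genes of Caenorhabditis elegans take their name from lying downstream of DAF-16, the FOXO transcription factor that insulin signalling holds out of the nucleus. When the insulin receptor DAF-2 is less active, DAF-16 enters the nucleus and a first class of target genes rises, among them dod-3 and dod-6, while a second class falls, among them dod-17, dod-19, dod-21, dod-22 and dod-24. Several of the second class, such as dod-17, dod-22 and dod-24, encode secreted proteins with a CUB-like domain, are expressed in the intestine and are also used as readouts of the p38 MAPK immune pathway. The 9 genes described here are the rows dod-3, dod-6, dod-17, dod-19, dod-20, dod-21, dod-22, dod-23 and dod-24 of a count table with 46891 named genes, chosen by name. All 9 rows held counts, and 7 passed the filter on low counts and were tested. A further row, dod-18, held 0 counts in all 6 libraries and is not among the 9.

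The libraries came from whole worms of the wild-type N2 strain given RNA interference (RNAi), a method that uses double-stranded RNA to reduce one transcript. The treated group received RNAi against y54g2a.18, the worm counterpart of the human endoplasmic reticulum gene BCAP31, and its comparison group received a control RNAi, with 3 libraries of polyadenylated RNA in each group. The series asked how loss of this gene bears on ageing. The sources used here do not state the worms' age or stage or what the control RNAi targeted, and both groups share the N2 background. The 6 libraries held between 30103422 and 39492584 counts. Whether replicate libraries came from separate cultures is not stated, so the p-values reflect the spread between libraries alone, and that spread may be technical. The targeted gene Y54G2A.18 stood at 391, 358 and 409 CPM (counts scaled to library size) in control replicates 1 to 3 and at 190, 128 and 90.2 CPM in RNAi replicates 1 to 3, 2.84-fold lower on average (log2 fold change -1.51 ± 0.25 SE, adjusted p = 0.00732 by edgeR's quasi-likelihood test). RNAi replicate 2 is set apart below because several dod genes took their extreme value there.

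The authors' table listed many genes with several annotated transcripts at 0. Of protein-coding genes with 1 annotated transcript 7.07% had 0 counts in all 6 libraries, against 28.9% of those with 2, 39.9% of those with 3 and 62.0% of those with 4 or more. daf-16, with 11 annotated transcripts, and daf-2, with 7, were both listed at 0, so the table says nothing on the level of the transcription factor or the receptor. Of the dod genes 7 have 1 annotated transcript, dod-22 has 2 and dod-19 has 3. The levels of dod-22 and dod-19 may therefore miss reads that the other dod genes keep, and this was not tested.

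The dod genes differed widely in level. Per kilobase of exon, control worms held 363 ± 8.71 CPM per kb of dod-23, 223 ± 6.49 of dod-3 and 105 ± 4.56 of dod-6 (SD, n = 3). A middle group followed, with dod-19 at 14.5 ± 0.0986, dod-17 at 10.2 ± 0.518 and dod-24 at 8.85 ± 0.933 CPM per kb. dod-20 stood at 1.54 ± 0.509 CPM per kb, and dod-22 and dod-21 were near 0, at 0.0798 and 0.0455 CPM per kb. Over the control libraries the values of dod-17 and dod-24 overlapped, as did those of dod-22 and dod-21, while the other neighbours in this order did not. After y54g2a.18 RNAi dod-24 had the highest mean of the middle group, at 19.99, 40.3 and 22.3 CPM per kb in RNAi replicates 1 to 3, dod-19 at 18.2, 25.5 and 23.5 and dod-17 at 13.9, 33.0 and 16.7, and these 3 overlapped one another. dod-23 and dod-3 also overlapped after RNAi: dod-23 was at 367, 198 and 381 CPM per kb in RNAi replicates 1 to 3 and dod-3 at 204, 273 and 196, so their order was turned in replicate 2.

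**Figure D1:**
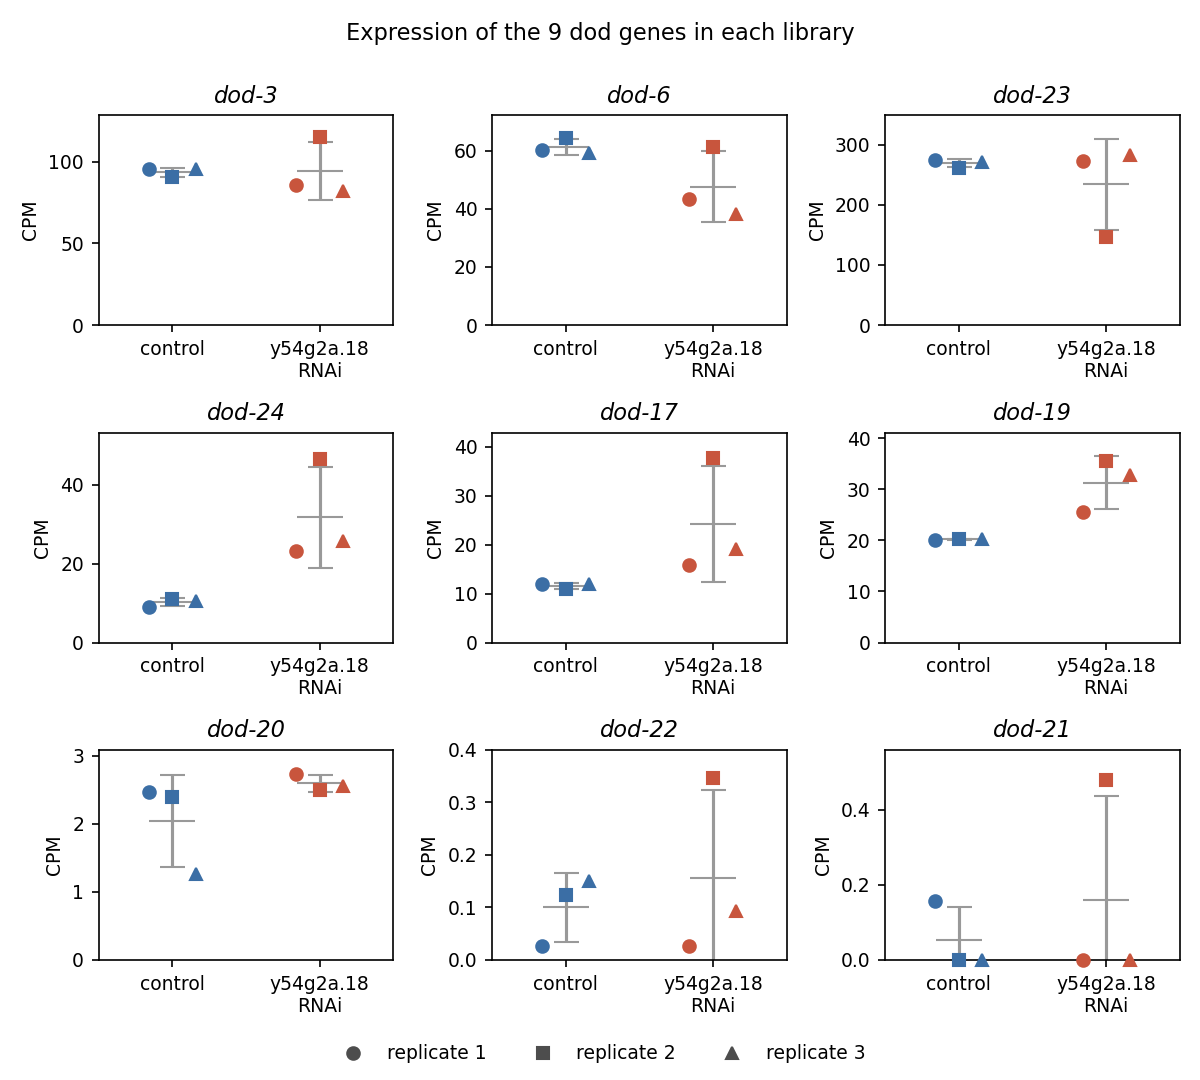
CPM of each dod gene in the 3 control libraries (blue) and the 3 y54g2a.18 RNAi libraries (red), marked by replicate, with the group mean (long bar) and SD (whiskers, cut at 0). Each axis starts at 0. The RNAi libraries lie above all controls for dod-24, dod-17, dod-19 and dod-20, and RNAi replicate 2 is the highest library for 6 of the 9 genes and the lowest for dod-23.

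dod-24 rose after y54g2a.18 RNAi and was the 1 dod gene that passed the test, with 0 of the 7 tested genes lower. Its values were 9.05, 11.2 and 10.5 CPM under control RNAi and 23.1, 46.6 and 25.8 CPM after RNAi. Each RNAi library was above each control, and replicate 2 held the most. The mean rose from 10.2 ± 1.079 to 31.8 ± 12.85 CPM (SD, n = 3), 3.11-fold, with a log2 fold change of 1.64 ± 0.28 (SE) and an adjusted p of 0.00839 in edgeR. Without RNAi replicate 2 the log2 fold change was 1.26 and the adjusted p 0.0059. The call held in all 17 alternatives, with adjusted p from 8.76e-07 to 0.0491. The threshold for a call was an adjusted p of 0.05. Over all 14290 tested genes 8.98% were called, 3.97% as higher and 5.01% as lower, so 1 call among 7 tested genes is close to the background. Without RNAi replicate 1, 3 dod genes were called higher (6.24% of all tested genes), and without RNAi replicate 2, 1 was called lower (5.16%). DESeq2 called 3 dod genes higher (5.78% of all genes), as did edgeR with the ribosomal RNA share as a covariate (7.33%, and 15.5% in either direction). With no filter 2 were called higher (3.12%). At an unadjusted p of 0.05, 3 of the 7 passed (dod-24, dod-17 and dod-19), against 23.3% of all tested genes.

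dod-17, which encodes another CUB-like protein, was at 11.9, 10.9 and 11.9 CPM under control RNAi and 15.8, 37.6 and 19.05 CPM after RNAi. The groups did not overlap, but RNAi replicates 1 and 3 lay close above the controls and replicate 2 far above both. Its log2 fold change of 1.06 ± 0.31 (95% interval 0.34 to 1.78) did not pass in edgeR (adjusted p = 0.0771), and it became 0.59 without RNAi replicate 2 (adjusted p = 0.0763) and 1.29 without replicate 1 (adjusted p = 0.0198). DESeq2 called it (adjusted p = 0.0118). dod-19 was at 20.1, 20.3 and 20.3 CPM under control RNAi and 25.5, 35.6 and 32.8 CPM after RNAi. The control libraries of dod-19 were nearly equal and every RNAi library was above them. The log2 fold change of dod-19 was 0.63 ± 0.17 (95% interval 0.23 to 1.03), and it too missed the threshold in edgeR (adjusted p = 0.0614) and passed it in DESeq2 (adjusted p = 0.0234) and without RNAi replicate 1 (0.0112).

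dod-20, which lies near dod-19 on chromosome V, was low, at 2.46, 2.39 and 1.26 CPM under control RNAi and 2.73, 2.5 and 2.55 CPM after RNAi. Its groups did not overlap, although control replicates 1 and 2 lay just below the RNAi libraries. The log2 fold change was 0.34 ± 0.29, with a 95% interval from -0.31 to 1.00 and an adjusted p of 0.525 in edgeR, and without control replicate 3 it was 0.09. In all, 4 of the 7 tested dod genes had RNAi libraries that lay above every control and 0 had all of them below. The shares over all tested genes were 15.8% and 14.6%, 30.4% together. Related lists described below showed this too. Of 7 tested intestinal markers 4 lay above and 1 below. Of 6 tested genes known to fall with active DAF-16, 3 lay above and 0 below. Of 13 tested p38-dependent immune genes 4 lay above and 1 below.

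The abundant members showed no called change. dod-3, of the class that DAF-16 raises, was at 95.2, 90.4 and 95.2 CPM under control RNAi and 85.5, 115 and 82.2 CPM after RNAi. Its RNAi libraries lay on both sides of the controls, and the log2 fold change of 0.01 had a 95% interval from -0.35 to 0.37 (adjusted p = 0.981 in edgeR). dod-6, the other member of that class, was at 60.3, 64.2 and 59.1 CPM under control RNAi and 43.2, 61.4 and 38.3 CPM after RNAi. RNAi replicates 1 and 3 were below the controls and replicate 2 was among them. The log2 fold change of dod-6 was -0.36 ± 0.19 (95% interval -0.80 to 0.07, adjusted p = 0.299 in edgeR), and without RNAi replicate 2 it was -0.59 and passed (adjusted p = 0.0361). dod-23 had the highest level of all 9 and stood at 274, 262 and 271 CPM under control RNAi and 272, 147 and 282 CPM after RNAi. RNAi replicate 2 was far below the other 5 libraries, which lay together. The log2 fold change of -0.20 had a 95% interval from -0.74 to 0.33 (adjusted p = 0.662), and it was 0.04 without RNAi replicate 2.

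dod-21 and dod-22 were too low to test. dod-21 had 6, 0 and 0 counts in control replicates 1 to 3 and 0, 18 and 0 counts in RNAi replicates 1 to 3, so all of its reads came from 1 library of each group. dod-22 had 1, 5 and 5 counts in the controls and 1, 13 and 3 after RNAi. The groups overlapped for both genes, and at this depth no difference was detectable.

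**Figure D2:**
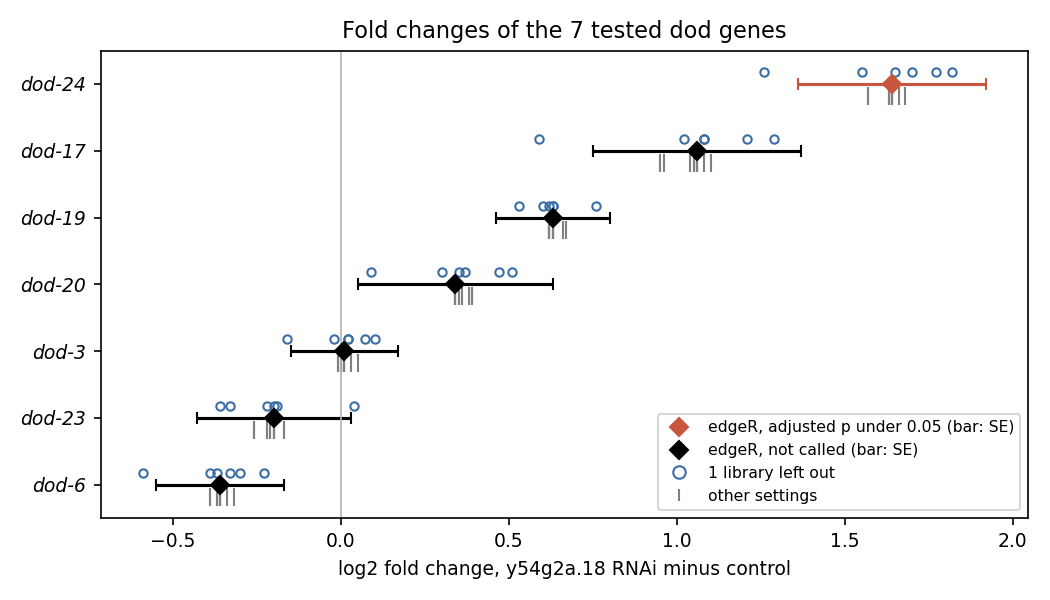
Log2 fold change (RNAi minus control) of the 7 tested dod genes by edgeR with its SE (diamonds), with 1 library left out (open circles) and under the other settings (ticks). dod-24 lies at 1.64 and stays between 1.26 and 1.82, dod-17 drops from 1.06 to 0.59 without RNAi replicate 2, and dod-3 stays within -0.16 to 0.1.

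RNAi replicate 2 held the highest value of the 6 libraries for 6 of the 9 dod genes (dod-3, dod-17, dod-19, dod-21, dod-22 and dod-24), and for 4 of the 7 tested, against 21.3% of all tested genes. Over all tested genes RNAi replicates 1 and 3 were the least alike pair (Pearson r 0.965, against 0.97 and 0.974). RNAi replicate 2 was singled out for the dod values, so its share of peaks is a description only. On the log2 CPM scale dod-17 was 1.11 and dod-24 0.93 above the mean of RNAi replicates 1 and 3 in that library. These differences were larger than those of 98.4% and 97.0% of tested genes. dod-6 was 0.59 and dod-3 0.45 above that mean, and dod-23 was 0.92 below it (log2 difference -0.92), lower than all but 4.98% of tested genes. The knockdown of Y54G2A.18 itself was intermediate in that library, between 190 CPM in replicate 1 and 90.2 CPM in replicate 3. Of the 7 tested intestinal marker genes 5 were also highest in that library. The summed level of the list, most of it from the protease gene asp-1, was 3074, 2965 and 3117 CPM under control RNAi and 3154, 4857 and 3644 CPM in RNAi replicates 1 to 3, with 1 of the 8 markers, ifb-2, listed at 0. Of the 7 tested intestinal markers 0 were called in edgeR and 2 had an unadjusted p under 0.05, against 8.98% and 23.3% of all tested genes. The actin gene act-5 was at 414, 709 and 404 CPM in RNAi replicates 1 to 3 and asp-1 at 2599, 3902 and 2993 CPM. The other two did not peak in replicate 2. The GATA factor gene elt-7 was at 5.35, 4.89 and 6.44 CPM, lowest of all 6 libraries in replicate 2, and the peptide transporter gene pept-1 was at 17.1, 34.3 and 43.6 CPM, highest in replicate 3. The part of intestinal content in the dod values was not tested, and in whole worms fewer cells of a type and less RNA per cell cannot be told apart.

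**Figure D3:**
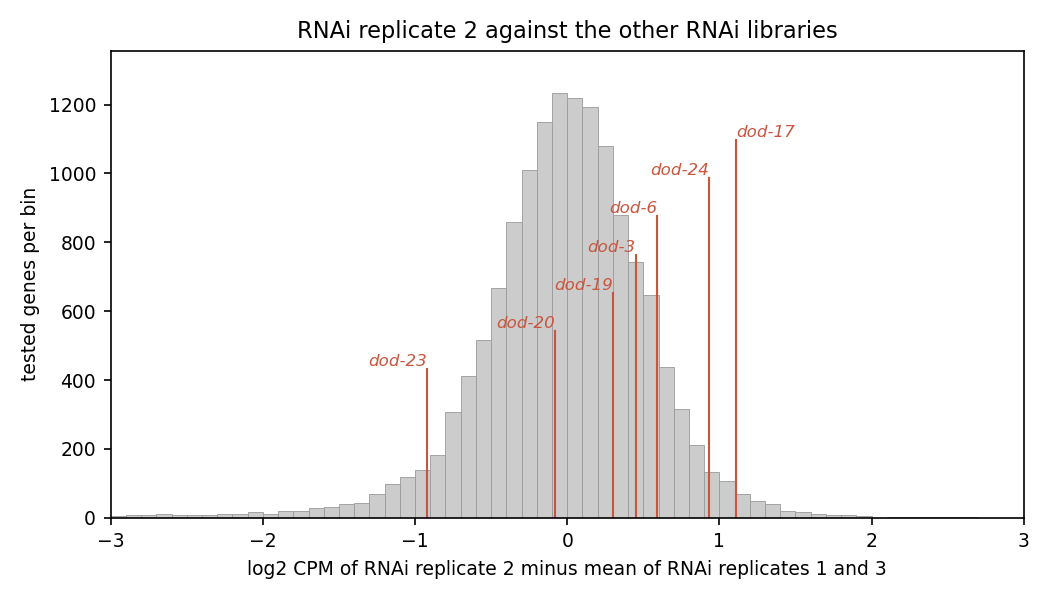
Number of tested genes (grey bars, 0.1 log2 units wide) by the difference between RNAi replicate 2 and the mean of RNAi replicates 1 and 3 in log2 CPM, with the 7 tested dod genes marked by red lines whose height has no meaning. dod-17 and dod-24 stand in the upper tail at 1.11 and 0.93, and dod-23 in the lower tail at -0.92. The 20 genes beyond 3 log2 units are not drawn.

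Markers of other tissues moved between the groups as well. Of the hypodermal markers 3 of 4 tested fell, the cuticle collagens rol-6 and dpy-7 and the hedgehog-related gene wrt-2. Of all tested genes 5.01% were called lower. The summed levels of all 5 hypodermal markers were 1400.0 to 1604 CPM under control RNAi and 571 to 958 CPM after RNAi. The tested marker col-10 was not called, at 423 ± 23.4 and 472 ± 117 CPM (SD, n = 3, log2 fold change 0.16). bli-1 was listed at 0. Of 4 tested pharyngeal markers 1 fell, the troponin C gene tnc-2, and sums ranged from 212 to 223 CPM under control RNAi and from 89.1 to 106 CPM after RNAi. Most of these sums came from tnc-2 itself, at 173 ± 15.1 and 70.1 ± 8.41 CPM (SD, n = 3). The groups overlapped for myo-2, myo-1 and pha-4, whose log2 fold changes were -0.84, -0.76 and 0.72. Muscle, neuronal and germline markers had 0 calls among 4, 2 and 4 tested in edgeR, and 1, 0 and 1 of them had an unadjusted p under 0.05. Of all tested genes 8.98% were called and 23.3% had such an unadjusted p. The sums for muscle, neurons and germline were 1206 to 1355, 440.0 to 517 and 294 to 386 CPM under control RNAi. After RNAi they were 1490.0 to 2071, 453 to 636 and 195 to 287 CPM. The largest part of the muscle sum came from unc-27 and of the neuronal sum from snb-1. The muscle gene hlh-1, the neuronal gene unc-104 and the germline gene nos-3 were listed at 0.

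dod-21, dod-24, dod-22 and dod-17 lie in that order within a stretch of 13 protein-coding genes on chromosome IV, and the genes among and around them moved in both directions. Next to dod-17, F55G11.4 rose from 8.3 ± 0.442 to 27.2 ± 2.89 CPM (SD, n = 3), with 24.5, 30.2 and 26.8 CPM in the RNAi libraries, and its log2 fold change of 1.71 ± 0.17 (adjusted p = 0.00093 in edgeR) held in all 17 alternatives. F55G11.2, between F55G11.4 and dod-22, rose from 4.68 ± 0.0535 to 12.64 ± 6.86 CPM, with 7.48, 20.4 and 10.02 CPM in the RNAi libraries. Like dod-17 it was highest in RNAi replicate 2, and its log2 fold change of 1.43 was 0.90 without that library. Its call (adjusted p = 0.0401) was lost without any one control library (0.134 to 0.14) and in limma-voom. F55G11.8, on the other side of dod-22, was at 15.7 ± 0.864 and 23.8 ± 7.99 CPM and was not called (adjusted p = 0.178).

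Around dod-21 and dod-24 the called genes fell. srlf-4 fell from 16.6 ± 1.79 to 2.54 ± 0.853 CPM, 6.51-fold lower (adjusted p = 0.00093 in edgeR), and held in all 17 alternatives. srlf-5 was at 1.44 ± 0.193 CPM under control RNAi and fell to 0.341 ± 0.202 (adjusted p = 0.0283). C32H11.11, which sits between dod-21 and dod-24, was at 1.24 ± 0.28 CPM and fell to 0.331 ± 0.146 (adjusted p = 0.0237). Both of these low genes lost the call without any one control library (adjusted p 0.0763 to 0.113 for srlf-5 and 0.0522 to 0.113 for C32H11.11), and C32H11.11 also without RNAi replicate 3 (0.0531). Beside dod-19 on chromosome V, the infection response gene irg-8 fell from 88.9 ± 0.136 to 58.0 ± 4.07 CPM (log2 fold change -0.62, adjusted p = 0.0168, and 0.0865 to 0.122 without any one control library), while dod-19 had a log2 fold change of 0.63. Over the 5 nearest protein-coding genes on each side of every dod gene, 37 of 61 were tested, 2 rose and 4 fell. The share called, 16.22%, is to be read against 8.98% of all tested genes, and the median log2 fold change was -0.03 against 0.02. Without any one control library 2 of these neighbours were called, against 4.43, 4.57 and 4.55% of all tested genes without control replicates 1, 2 and 3.

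**Figure D4:**
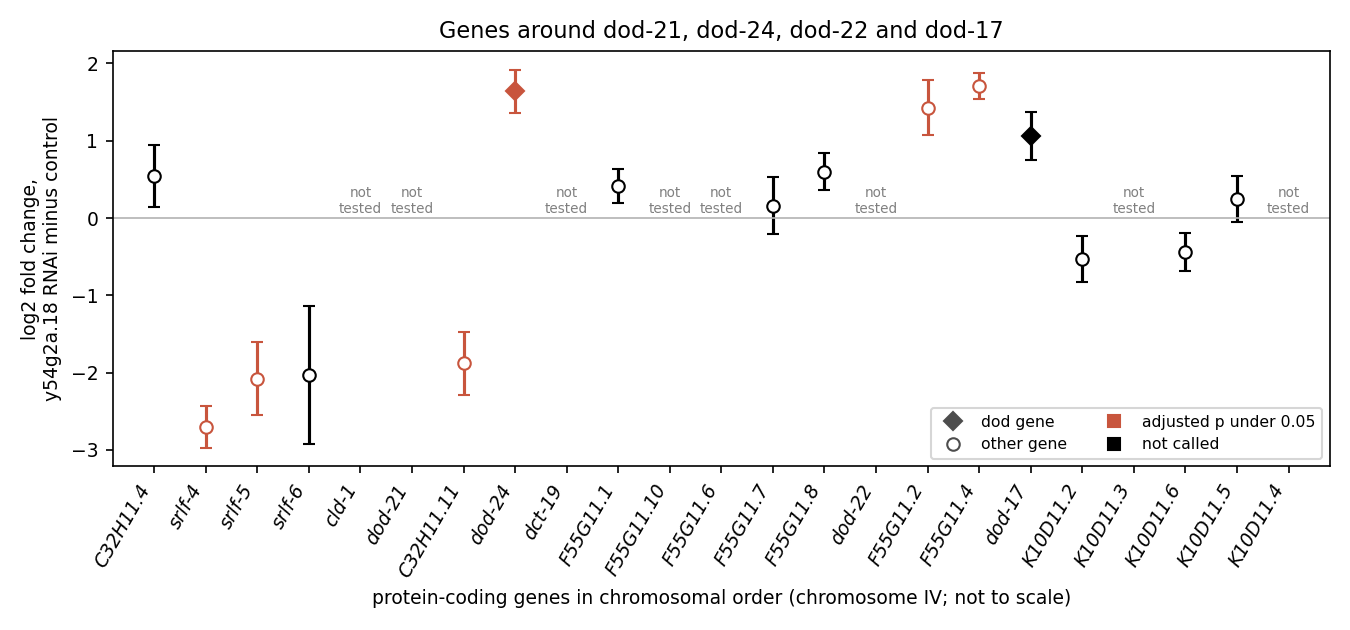
Log2 fold change (RNAi minus control, with SE) of 23 neighbouring protein-coding genes on chromosome IV in RefSeq order, with dod genes as filled diamonds, other genes as open circles and called genes in red. dod-24, F55G11.2 and F55G11.4 lie above 0 and srlf-4, srlf-5 and C32H11.11 below it, while dod-21 and dod-22 were too low to test.

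The pathway genes around the dod genes gave few calls. Of 19 insulin signalling components 9 were tested, 0 were called in edgeR and 0 had an unadjusted p under 0.05. DESeq2 and limma-voom, which called 12.4% and 8.53% of all genes, called 0 of them, and 10 components, daf-2, daf-16, akt-1 and akt-2 among them, were at or near 0 in the table. The zinc-finger gene pqm-1, whose product acts on second-class targets, was at 51.1, 55.5 and 48.2 CPM under control RNAi and 47.3, 69.9 and 62.7 CPM after RNAi. Those groups overlapped, and its log2 fold change was 0.22 ± 0.17 (adjusted p = 0.503 in edgeR).

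Among 18 tested genes known to be raised by DAF-16, other than the 9 dod genes described here, 1 rose and 1 fell. The share called, 11.11%, is near the 8.98% of all tested genes, and the median log2 fold change was 0.27 against 0.02. The 2 calls became 0, 1 and 0 without control replicates 1, 2 and 3 (4.43, 4.57 and 4.55% of all tested genes), 4 without RNAi replicate 1 and 1 without RNAi replicate 3, where 14.4% and 7.75% of all tested genes were called. The cytochrome P450 gene cyp-35B1 rose from 5.49 ± 0.414 to 9.51 ± 0.843 CPM (adjusted p = 0.0249 in edgeR, and 0.104 to 0.134 without any one control library and 0.0539 without RNAi replicate 3). The desaturase gene fat-5 fell, from 322, 282 and 349 CPM under control RNAi to 183, 176 and 117 CPM. Its adjusted p of 0.0137 in edgeR became 0.068 without control replicate 1 and 0.0691 without control replicate 3. The superoxide dismutase gene sod-3, a common DAF-16 reporter, was at 18.6, 13.1 and 15.9 CPM under control RNAi and 34.6, 18.8 and 23.1 CPM after RNAi. Its groups lay close and did not overlap, and it was not called (adjusted p = 0.15). Of 6 tested genes known to fall with active DAF-16, the 9 dod genes left out, edgeR, DESeq2 and limma-voom called 0. The unadjusted p of 2 was under 0.05, against 23.3% of all tested genes, and the median log2 fold change was 0.28 against 0.02. Without RNAi replicate 1, 1 of these 6 genes was called, where 14.4% of all tested genes were called.

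The p38 MAPK pathway itself could be read for 2 of 6 components, both not called in edgeR, DESeq2 or limma-voom. Those tests called 8.98%, 12.4% and 8.53% of all tested genes. Of the 2 components 1 had an unadjusted p under 0.05 in edgeR, against 23.3% of all tested genes. Without RNAi replicate 1, 1 component was called, where 14.4% of all tested genes were called. The kinase gene pmk-1, which encodes p38, was at 40.1, 40.7 and 39.6 CPM under control RNAi and 40.4, 58.9 and 49.8 CPM after RNAi (log2 fold change 0.31 ± 0.17, adjusted p = 0.313). Replicate 1 lay among the controls and replicate 2 was the highest, as for dod-24 and dod-17. The upstream kinase gene sek-1 was also highest there, at 57.7, 102 and 61.1 CPM after RNAi against 45.7 to 49.8 CPM in the controls (adjusted p = 0.133). Of 13 tested p38-dependent immune genes outside the 9 dod genes 3 rose and 0 fell. The share called, 23.08%, is to be read against 8.98% of all tested genes, and the median log2 fold change was 0.54 against 0.02. Leaving out control replicate 1, 2 or 3 left 1, 1 or 0 calls, where 4.43, 4.57 and 4.55% of all tested genes were called. Leaving out RNAi replicate 2 gave 7 calls, counted in either direction, where 9.66% of all tested genes were called. Without that library the tested members moved both ways, from 0.621-fold of the control mean in K08D8.5 to 2.83-fold in the low gene mul-1.

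The 3 immune genes called higher did not share the peak of dod-24 in RNAi replicate 2. Of the 13 tested members of that list, 4 were highest of the 6 libraries in RNAi replicate 2 and 4 in RNAi replicate 3. For RNAi replicate 2 the share over all tested genes was 21.3%. The uncalled member F55G11.8 peaked there, at 18.95, 33.0 and 19.45 CPM in RNAi replicates 1 to 3. irg-4 was at 10.5, 9.57 and 9.6 CPM under control RNAi and 20.3, 18.96 and 28.8 CPM after RNAi (adjusted p = 0.00818 in edgeR). Leaving out control replicate 2 gave 0.0531 and leaving out control replicate 3 gave 0.0505. The C-type lectin gene clec-67 rose from 11.42 ± 0.804 to 22.5 ± 2.63 CPM (adjusted p = 0.00902). Leaving out control replicate 1 gave 0.0779 and leaving out control replicate 3 gave 0.0598. The lysozyme gene lys-2 rose from 57.1 ± 5.63 to 90.5 ± 7.78 CPM (adjusted p = 0.0205, and 0.0644 to 0.15 without any one control library and 0.0528 without RNAi replicate 3). These rises were each highest in RNAi replicate 3. Among members that were not called, C32H11.4 was at 14.0, 41.4 and 14.4 CPM after RNAi and sysm-1 at 4.01, 0.319 and 3.83 CPM, so replicate 2 was the highest library for one and the lowest for the other.

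The genes whose levels ran most like dod-24 over the 6 libraries, of 7303 compared, were F45D3.3, F13D12.3 and hlh-33, with Pearson r of 0.995, 0.994 and 0.994 on the log2 CPM scale. These points share the libraries and the contrast, and r is given as a description. F13D12.3 was at 42.6, 44.0 and 44.4 CPM under control RNAi and 108, 194 and 110 CPM after RNAi, and hlh-33, a basic helix-loop-helix gene, at 13.7, 14.9 and 15.1 CPM and 25.5, 38.03 and 29.2 CPM. As for dod-24, replicate 2 was the highest RNAi library for both and for F45D3.3.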

How the data were processed

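The authors deposited raw counts per gene for the 6 libraries of the y54g2a.18 experiment. Per the submitters' processing notes the tools included HISAT2 2.2.1, FastQC 0.11.9, DESeq2 1.16.1 and featureCounts 1.28.1; no source used here states build, annotation or strand setting. 12 of 46903 entries had dates for names and were dropped (up to 0.0247% of a library). Of values from 1 to 20, 71.5% were even. Names, gene order and transcript numbers come from WBcel235 annotations, which held all 9 dod genes and no gene overlapping one; exon lengths do too. Similarity between dod genes, and so reads shared between them, was not examined.

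The members and lists were chosen with earlier results of these data known. Tests used R 4.3.3 and edgeR 4.0.16: filterByExpr (minimum count 10, minimum total 15), TMM scaling, a quasi-likelihood fit of group alone over 14290 genes, Benjamini-Hochberg adjustment. SE is the absolute log2 fold change over the square root of F, and 95% intervals use it with the residual plus prior degrees of freedom; both are approximate. The steps were checked on simulated counts with 50 genes changed at each fold. The fit recovered 0% of 1.5-fold, 28% of 2-fold, 86% of 4-fold and 98% of 8-fold changes, and 8 of 114 calls were false. A gene not called here may therefore still have changed by 2-fold, and less often by 4-fold or more. Far fewer genes were called there than the 1283 called here, so these shares are a rough guide. Alternatives were other scalings and filters, DESeq2 1.42.0, limma-voom (limma 3.58.1), a replicate block, ribosomal RNA share as covariate, ribosomal RNA genes left out and each library left out; 1-transcript genes only was added after seeing the data. Libraries of a group differed beyond sampling noise (chi-square per degree of freedom 24.1 to 181), and ribosomal RNA took 0.0965 to 2.06% of counts.

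Named were all dod genes, the target, daf-2, daf-16, pqm-1, sod-3, pmk-1, up to 5 called members of each pathway list and of the neighbours, and the 3 genes most like dod-24 with at least 10 CPM in a group. Called tissue markers were also named under that rule. Named after their values were seen were F55G11.8, sek-1, C32H11.4, sysm-1, K08D8.5 and mul-1. So were the markers act-5, asp-1, elt-7, pept-1, col-10, unc-27, snb-1, myo-2, myo-1 and pha-4. A planned list of protein relatives was not made, since no protein sequences were used here. The rpoa-49 table (43236 names, 0 dod rows) was not analysed.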

Additional observations from a re-analysis of the deposited data

How the results depend on the processing

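dod-24 was called higher under all 17 alternatives, with log2 fold changes from 1.26 to 1.82. The number of dod genes called higher, 1, became 2 with no filter and 3 in DESeq2 and with the ribosomal RNA share as a covariate, and ran from 1 to 3 with a library left out. The number called lower, 0, ran from 0 to 1. The cause of these changes was not tested. dod-3, near 0, changed sign in limma-voom (-0.01), with the replicate block (-0.01) and without control replicate 2 (-0.02) or RNAi replicate 2 (-0.16), and dod-23 without RNAi replicate 2 (0.04); with a library left out they ran from -0.16 to 0.1 and from -0.36 to 0.04. Over all tested genes 1283 calls became 2214 with the ribosomal RNA covariate and ran from 646 to 2097 with a library left out. With a library left out, calls among genes raised by DAF-16 ran from 0 to 4, among those lowered by it from 0 to 1, among p38 components from 0 to 1, among p38-dependent genes from 0 to 7 and among neighbours from 2 to 9. Of all tested genes 4.43% to 14.4% were called with a library left out. With the ribosomal RNA covariate 1 of the 6 tested genes lowered by DAF-16 was called, against 15.5% of all tested genes.

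Controls and RNAi libraries with the same replicate number did not deviate together (correlations of deviations 0.0074, 0.0454 and -0.365). Not every library correlated best with its own number, so the values gave no sign of pairing by number. The labels do not state whether libraries were prepared in pairs, and these correlations cannot settle it. With the replicate number as a block 955 genes were called, dod-24 remained called (log2 fold change 1.57, adjusted p = 0.00799), the number of dod genes called higher was 1 and the calls among genes raised by DAF-16 fell to 1. Among the called genes named in the text, the block fit did not call C32H11.11 (adjusted p = 0.0541), irg-8 (0.0756), cyp-35B1 (0.0826), lys-2 (0.0546) and F45D3.3 (0.0841). Depth limits dod-21 and dod-22, with 24 and 28 counts over 6 libraries.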
